A study of Mus musculus with 10 samples.

Results

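Mouse embryonic stem (ES) cells with 3 copies of chromosome 15 (Ts15) were compared with diploid ES cells (WT) on 1-colour expression arrays. The comparison used 4 of the 10 samples of the study, 2 per group, chosen by their labels. Of 28193 genes tested, 1105 had their probe on chromosome 15, and 178 of these were long intergenic noncoding RNAs (lincRNAs). The other 6 samples came from ES cells trisomic for chromosome 6, 8 or 11 (Ts6, Ts8, Ts11) and served to show which differences were also present in trisomic lines that carry the usual number of chromosomes 15.

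WT was AB1, a male diploid ES line, taken at passages 18 and 20. Ts15 was a line of strain 129 S7/SvEvBrd taken at passages 11 and 14. Its sex and its parent line are not in the labels, and 1 line represents the trisomy, so chromosome 15 copy number and line origin cannot be told apart. All cells grew on γ-irradiated SNL76/7 feeder fibroblasts, which were reduced before lysis by letting them settle. The replicates of a group were taken at different passages. The Ts15 samples were the only ones hybridised on slide 2, and the remaining 8 samples were on slide 1. Slide and group therefore cannot be told apart for Ts15.

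ES cells are derived from the inner cell mass of the blastocyst and keep the ability to form all embryonic lineages, under control of factors such as Oct4 (Pou5f1), Nanog and Sox2. A trisomy adds an extra copy of each gene of a chromosome, and transcript levels are generally raised in proportion to copy number unless feedback acts on a gene. Mouse chromosome 15 carries, among others, the growth regulator Myc, the stress response factor Atf4, the sterol regulator Srebf2, the Hoxc cluster, the type II keratins and the Ly6 family of small surface proteins. ES cells that start to differentiate often form primitive endoderm, the lineage of the yolk sac, which is marked by Gata4, Gata6, Sox17 and Foxa2.

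A level below is the log2 signal of a gene's probe relative to the 75th percentile of its array, so a negative level is dimmer than that percentile, and levels are compared between arrays but not between genes. Positions are those of the array probes on mm9; where a probe lies within its gene's exons or untranslated regions was not analysed here. A difference is Ts15 minus WT on the log2 scale, with its standard error from a limma fit over all 10 arrays, 2 a group. A gene was called where the limma adjusted p was under 0.05. Well above background were 77.9% and 78.5% of the noncontrol spots on the WT arrays, 72.3% and 73.3% on the Ts15 arrays, and 71.4% to 80.2% on the other arrays. All 10 ES cell markers examined were above background on all arrays. Their summed level was 7.44 and 7.35 in WT and 7.47 and 7.29 in Ts15. Of 11 feeder fibroblast markers that could be tested, the summed level was 5.32 on both WT arrays, 5.44 and 5.62 on the Ts15 arrays, and 4.87 to 5.35 on the arrays of the other lines.

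Genes of chromosome 15 were higher in Ts15 as a group. Their median difference was 0.194, and 71.9% of them had a higher mean in Ts15 than in WT. Elsewhere the median was -0.012 and 48.3% were higher. Relative to the 15 autosomes that are trisomic in no line, the mean level of chromosome 15 genes was shifted by 0.227 on Ts15 array 1 and by 0.210 on array 2, a mean of 0.218 ± 0.0121 (SD, n = 2), or 1.16-fold. That is 37.3% of the 0.58 on the log2 scale that a change from 2 to 3 copies would give in full proportion. The same shift lay between -0.031 and -0.008 on the 6 arrays of the other lines. The extra chromosome of each of those lines was shifted on its own arrays by 0.201 and 0.196 (Ts6), 0.251 and 0.260 (Ts8), and 0.207 and 0.228 (Ts11). A shift below full proportion was thus not particular to chromosome 15. The other autosomes had shifts of -0.049 to 0.043 on the Ts15 arrays.

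**Figure D1:**
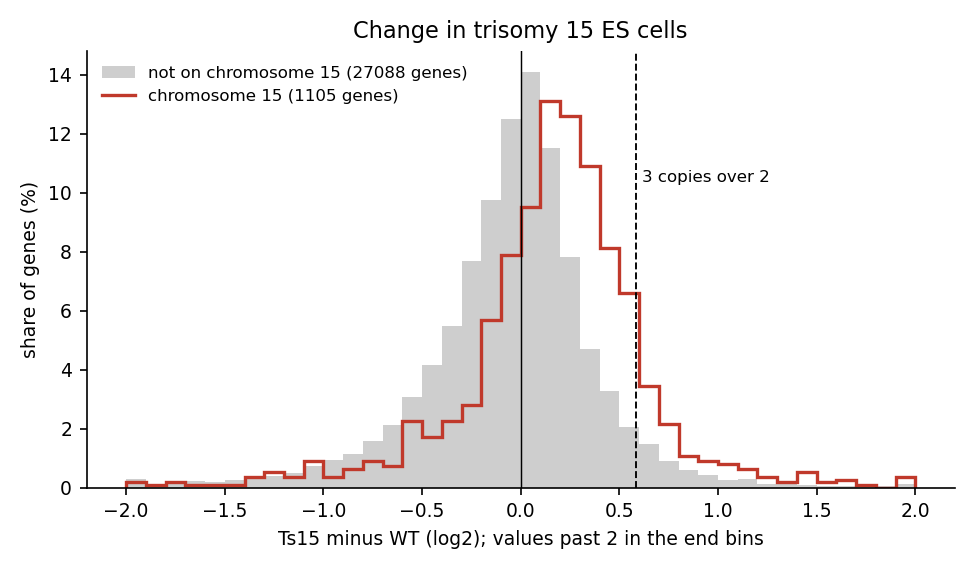
Distribution of the Ts15 minus WT log2 difference (x axis, with values past the ends of the axis in the end bins) as the share of genes in percent per bin (y axis), for the 1105 chromosome 15 genes (red line) and the 27088 genes elsewhere (grey); the dashed line marks the ratio of 3 copies to 2. The chromosome 15 genes, with a median of 0.194, are displaced to the right of the other genes, with a median of -0.012, and the spreads of both sets overlap widely.

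Both Ts15 arrays were above both WT arrays for 573 chromosome 15 genes, 51.9%, against 26.2% of the genes elsewhere. Both were below for 160, 14.5%, against 30.6%. Over all genes tested, 2096 (7.43%) were called, 726 higher (2.58%) and 1370 lower (4.86%). On chromosome 15, 110 were called higher (9.95%, against 2.27% elsewhere) and 35 lower (3.17%, against 4.93% elsewhere), 13.1% in either direction against 7.2% elsewhere. A difference of log2(3/2) or more was measured for 127 chromosome 15 genes, 11.5%, and for 4.99% of the genes elsewhere. The 95% limma intervals placed 34 chromosome 15 genes above a 1.5-fold difference and 264 above 0 with a 1.5-fold difference inside the interval. For 38 genes, 3.44%, the interval was above 0 and below 1.5-fold. For 449 genes, 40.6%, it included 0 and ended below 1.5-fold. A further 238 had intervals that included both values, and 82 lay below 0. These intervals are not adjusted for the number of genes tested. They were not counted for genes elsewhere, so the shares have no background beside them.

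The difference went with the level of the gene, on chromosome 15 and elsewhere. In quartiles of mean level set over all genes tested, the median difference of chromosome 15 genes was -0.042 in the dimmest (273 genes), 0.12 in the next (247 genes), 0.254 in the next (290 genes) and 0.26 in the brightest (295 genes). Of the brightest, 91.9% were higher in Ts15, with 34 called higher and 1 called lower. The medians of genes elsewhere rose with level too, at -0.214, -0.07, -0.013 and 0.074 from the dimmest to the brightest, where 68.7% were higher. In each quartile the median of chromosome 15 genes was above that of genes elsewhere. Among chromosome 15 genes above background on all 4 arrays the median was 0.22, with 109 called higher and 16 lower of 1027, and among the 78 others it was -0.63, with 1 called higher and 19 lower. The 2244 such dim genes elsewhere had a median of -0.497, with 33 called higher and 386 lower. A gene dim on a Ts15 array was kept only through another group that was above background, so its lower value cannot be separated from this filter. The share of spots above background was lower on both Ts15 arrays than on both WT arrays, and its part in the dim genes' differences was not tested. By kind of transcript, the 178 lincRNAs of chromosome 15 had a median of 0.015, with 52.2% higher, and the 927 other genes had 0.221, with 75.6% higher. LincRNAs elsewhere had a median of -0.088.

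Along the chromosome, genes were grouped in 11 windows of 10 Mb by their probe position on mm9. The median difference was above 0 in each. It was 0.222 at 0 to 10 Mb, 0.279 at 10 to 20 Mb, 0.034 at 20 to 30 Mb, 0.2 at 30 to 40 Mb, 0.017 at 40 to 50 Mb and 0.242 at 50 to 60 Mb. The distal windows gave 0.09 at 60 to 70 Mb, 0.205 at 70 to 80 Mb, 0.232 at 80 to 90 Mb, 0.146 at 90 to 100 Mb and 0.176 at 100 to 110 Mb. The lowest medians belonged to gene-poor windows, with 29 genes at 20 to 30 Mb and 23 at 40 to 50 Mb. In the latter, the mean shift was below 0 on both arrays (-0.175 and -0.161), the median was 0.023 on array 1 and -0.047 on array 2, no gene was called higher and 2 were called lower. When only genes above background on all 4 arrays were taken, the medians of the windows ran from 0.057 to 0.304. The medians of the other 3 lines in the same windows lay between -0.161 and 0.123.

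**Figure D2:**
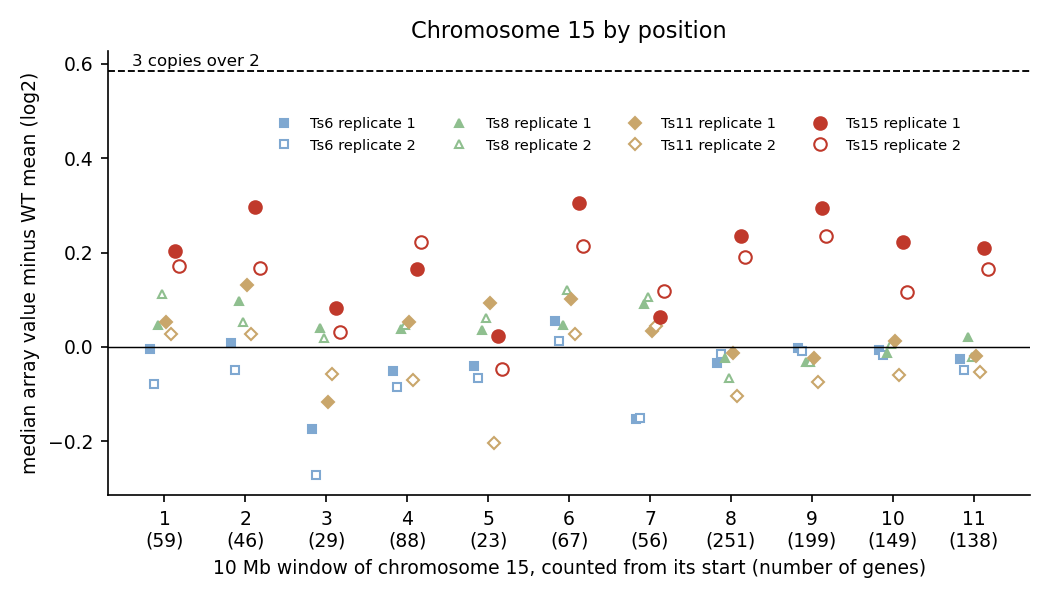
Median of each array's level minus the WT mean (y axis, log2) over the genes in each 10 Mb window of chromosome 15 (x axis, windows counted from the start, with the number of genes below), 1 point per array of the 4 trisomic lines; the dashed line marks the ratio of 3 copies to 2. The Ts15 points (red circles) are above 0 in every window but the fifth, at 40 to 50 Mb, where array 1 is at 0.023 and array 2 at -0.047.

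Called genes lay in every window. The gene-dense distal windows held most of them, 28 higher and 5 lower of 251 genes at 70 to 80 Mb, 30 higher and 5 lower of 199 at 80 to 90 Mb, and 16 higher and 6 lower of 149 at 90 to 100 Mb. In the proximal windows the called genes included Dab2, an endocytic adaptor, at 0.74, the glycosyltransferase Ugt3a1 at 0.67, and the hydrolase gene Cmbl at 0.82. Otulin, a deubiquitinase for linear ubiquitin chains, was at 0.55 and its neighbour and relative Otulinl at 1.54. Between 50 and 60 Mb the genes called higher were Utp23 (0.50), a factor of ribosomal RNA processing, Ext1 (0.46), a heparan sulfate polymerase, Derl1 (0.56), Tbc1d31 (0.52), Tatdn1 (0.76), Washc5 (0.44) and the transporter Slc22a22. At 60 to 70 Mb the noncoding RNA gene Pvt1, next to Myc, was called at 0.53.

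Among named chromosome 15 genes above background in both groups, the highest difference was that of Lypd2, a Ly6 family surface protein (probe at chr15:74562684-74562743). Its level was -4.33 and -4.36 in WT and -2.40 and -2.42 in Ts15. Both Ts15 arrays were above all 8 others. The difference was 1.94 ± 0.21 (SE), or 3.84-fold, with a limma adjusted p of 0.0034. Near it, at chr15:75052403-75052462, a transcript with no gene symbol had the highest difference of any chromosome 15 entry above background in both groups, 2.33 (adjusted p = 0.0035); it was chosen after its value was seen.

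Cdh6, a cadherin of kidney and neural crest (chr15:12963981-12964040), was at -4.91 and -4.90 in WT and at -2.66 and -3.29 in Ts15. Both Ts15 arrays were higher than WT, and their spread was larger than that of the WT arrays. The difference was 1.93 ± 0.23, with an adjusted p of 0.005. Efcab6, an EF-hand calcium-binding protein (chr15:83697493-83697552), had levels of -4.49 and -4.55 in WT and -2.87 and -2.60 in Ts15. Its Ts15 arrays were the highest of all arrays, and its difference was 1.78 ± 0.42 with an adjusted p of 0.046.

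The peptide hormone gene Adm2 was at -2.44 and -2.35 in WT and at -0.54 and -0.92 in Ts15. The groups were separate, with a difference of 1.66 ± 0.34 (adjusted p = 0.03). The other trisomic lines were also above WT by 0.27 to 1.10, and the difference of Ts15 from their mean, 0.86, was not called (adjusted p = 0.07). The galectin gene Lgals2 was at -4.75 and -4.49 in WT and at -2.86 and -3.14 in Ts15. These did not overlap, and the difference was 1.63 ± 0.21 (adjusted p = 0.0062).

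Otulinl (chr15:27586750-27586809) was at -4.07 and -4.36 in WT and at -2.53 and -2.81 in Ts15. The Ts15 arrays stood above all 8 others, and the difference was 1.54 ± 0.16 (adjusted p = 0.0029). The myoglobin gene Mb was at -3.92 and -4.53 in WT and at -2.79 and -2.65 in Ts15. The WT arrays were further apart than the Ts15 arrays but below both, and the difference was 1.5 ± 0.24 (adjusted p = 0.013). Eppk1, which encodes the cytoskeletal linker epiplakin, was at -1.97 and -2.54 in WT and at -0.92 and -0.95 in Ts15. Each Ts15 array was higher than each WT array, with a difference of 1.32 ± 0.20 (adjusted p = 0.012). The other lines were above WT by 0.38, 0.56 and 0.54, and Ts15 was called higher than their mean by 0.83 (adjusted p = 0.015).

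Smc1b, Mei1, Aqp6 and Ly6k were above WT in each of the other trisomic lines too, and, like Adm2, were not called against their mean. Smc1b, a meiotic cohesin subunit, was at -2.23 and -2.26 in WT and at -0.51 and -1.0 in Ts15. No Ts15 array overlapped WT, the difference was 1.49 ± 0.22 (adjusted p = 0.0097), and Ts6, Ts8 and Ts11 were above WT by 1.94, 1.48 and 1.97. Mei1, needed for meiotic recombination, was at -3.28 and -3.59 in WT and at -1.82 and -2.14 in Ts15. Without overlap, Ts15 was higher by 1.46 ± 0.16 in the mean (adjusted p = 0.0036), while the other lines were above WT by 1.30, 1.47 and 0.38. The water channel gene Aqp6 had a difference of 1.44 ± 0.32 (adjusted p = 0.037), against -0.09 from the mean of the other lines, and its other probe gave -0.5. Ly6k, a surface protein of the germ line, had 1.39 ± 0.31 (adjusted p = 0.036), against 0.23 from the other lines.

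**Figure D3:**
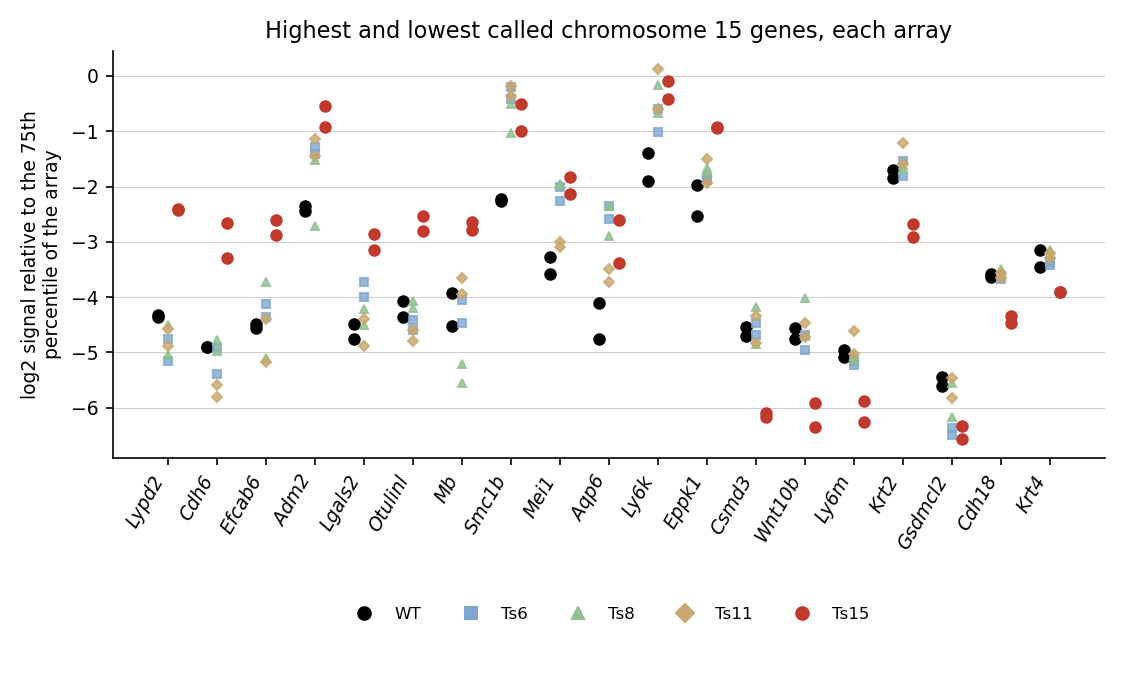
Level (y axis, log2 signal relative to the array's 75th percentile) of the chromosome 15 genes with the highest and lowest called differences (x axis), 1 point per array of all 5 groups. The Ts15 points (red) of each gene lie on 1 side of both WT points (black), and those of Smc1b, Aqp6 and Ly6k lie among the points of the other trisomic lines.

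The transporter gene Slc22a22 was not above background on either WT array, where it was at -8.97 and -8.82. In Ts15 it was above background at -5.21 and -5.20. The groups were far apart, and against the lowest signal called above background the gene was at least 3.45-fold higher in Ts15 (adjusted p = 0.027). This call was lost when any of the 4 arrays was left out.

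Among chromosome 15 genes called lower, most were dim. Of the 35, 13 were lincRNAs and 12 were above background on neither Ts15 array. Csmd3, a large membrane protein of the nervous system (chr15:48087072-48087131), was at -4.71 and -4.54 in WT and at -6.16 and -6.09 in Ts15. The Ts15 arrays were below all 8 others, and 1 of them was above background. The difference was -1.5 ± 0.24 (adjusted p = 0.013). The signalling ligand gene Wnt10b was at -4.75 and -4.55 in WT and at -5.91 and -6.35 in Ts15, again with 1 Ts15 array above background. The groups did not overlap, with a difference of -1.48 ± 0.25 (adjusted p = 0.015).

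The neuronal cadherin gene Cdh18, above background on all 4 arrays, was at -3.58 and -3.64 in WT and at -4.34 and -4.46 in Ts15. The groups were separate by far more than either spread, and the difference was -0.79 ± 0.10 (adjusted p = 0.006). The epidermal keratin gene Krt2 was at -1.70 and -1.84 in WT and at -2.68 and -2.91 in Ts15. The Ts15 arrays were both lower, by 1.02 ± 0.16 in the mean (adjusted p = 0.013), but another probe of Krt2 gave 0.39. Ly6m (-1.04), Gsdmcl2 (-0.92) and the mucosal keratin gene Krt4 (-0.60) completed the named genes called lower.

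By role, the chromosome 15 genes of 11 lists (214 members) are described by counts and medians. They are to be read beside the chromosome itself, where 9.95% of genes were called higher. Its genes other than lincRNAs had a median of 0.221, with 75.6% higher in the mean. Over all genes tested the median was -0.006. Of 36 transcription genes, 4 were called higher and 0 lower, 30 had a higher mean in Ts15, and the median difference was 0.283. Sox10, a neural crest factor (chr15:78985518-78985577), was at -2.69 and -2.82 in WT and at -1.60 and -1.51 in Ts15. The Ts15 arrays were above all 8 others, and the difference was 1.20 ± 0.12 (adjusted p = 0.0028). Polr2k, a small subunit shared by RNA polymerases, was at 0.45 (adjusted p = 0.049).

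Atf4, which activates amino acid synthesis and import genes under stress (chr15:80087902-80087961), was at 3.25 and 3.12 in WT and at 3.91 and 3.57 in Ts15. Both Ts15 arrays were above all 8 others. The difference was 0.55 ± 0.13, with an adjusted p of 0.046, and a second probe gave 0.77. Leaving out an array ended this call in 3 of 4 cases. Myc (chr15:61821417-61821476) was at 2.00 and 2.19 in WT and at 2.85 and 2.79 in Ts15, so that the groups were separate. Its difference of 0.72 ± 0.18 was not called (adjusted p = 0.052), while against the mean of the other lines it was 1.06 ± 0.15 and was called (adjusted p = 0.0035). Srebf2, the activator of cholesterol synthesis, was at -0.17 and 0.28 in WT and at -0.09 and -0.29 in Ts15. Its arrays overlapped, and the difference of -0.25 was not called (adjusted p = 0.5). The heat shock factor gene Hsf1 had a difference of 0.12 and was not called.

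Of 15 translation genes none was called against WT at the adjusted threshold in limma, although 5 were higher at an unadjusted p under 0.05 and all 15 had a higher mean in Ts15, with a median difference of 0.225. Eif4b, an initiation factor, was at 0.44 and Rps19bp1 at 0.38. The subunits of initiation factor 3 that chromosome 15 encodes were at 0.22 (Eif3e), 0.17 (Eif3h), 0.15 (Eif3d) and 0.23 (Eif3l). Against the mean of the other lines 7 of the 15 were called higher, with a median of 0.332. None of 13 subunits of this factor across the genome was called by limma (1 was higher at an unadjusted p under 0.05), and their median was 0.056.

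Of 20 genes of the cell cycle and DNA repair, 6 were called higher and 0 lower, with a median of 0.391 and 18 higher in the mean. The 6 include the meiotic genes Smc1b and Mei1 described above. Gtse1, a mitotic regulator of p53, was at 0.66 (adjusted p = 0.012). Nup50, a nuclear pore protein, was at 0.73 (adjusted p = 0.029). Racgap1, which acts in cytokinesis, was at 0.55 (adjusted p = 0.034), and Tonsl, a factor of replication fork repair, was at 0.54 (adjusted p = 0.032). The cohesin subunit gene Rad21 was at 0.26 and the helicase gene Recql4 at 0.52 (adjusted p = 0.051), neither of them called.

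Of 14 genes listed under protein folding, transport and turnover, 4 were called higher and 0 lower, with a median of 0.383. They were Tatdn1 (0.76, adjusted p = 0.03), Grina (0.55, adjusted p = 0.019), Derl1 of the endoplasmic reticulum degradation pathway (0.56, adjusted p = 0.03), and Gsdmd, the pore-forming executor of pyroptosis (0.82, adjusted p = 0.016). Tatdn1 and Derl1 were above WT in each of the other lines too, by 0.42 to 0.48 and by 0.22 to 0.57. Neither was called against the mean of those lines (limma adjusted p = 0.14 for both). The list was broad, and its count does not stand for folding and turnover genes alone. Of 28 metabolic genes, 3 were called higher, 25 had a higher mean in Ts15, and the median was 0.358. They included Cpt1b, a carnitine acyltransferase of fatty acid oxidation (1.01, adjusted p = 0.012), and Slc25a32, the mitochondrial folate carrier (0.73, adjusted p = 0.046). Against the mean of the other lines Slc25a32 was at 0.43 and was not called (limma adjusted p = 0.069).

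Of 21 signal transduction genes, 2 were called higher, with a median of 0.175. Rac2, a small GTPase of blood cells, had a difference of 0.99 (adjusted p = 0.019). Dab2 (chr15:6390616-6390675) was at 0.03 and 0.30 in WT and at 0.98 and 0.83 in Ts15. Its groups did not overlap, and the difference was 0.74 ± 0.18 (adjusted p = 0.046). Of 22 ligands and receptors, Wnt10b was called lower, none was called higher (2 at an unadjusted p under 0.05), and the median was 0.08. Lifr, a subunit of the receptor for the self-renewal cytokine LIF, was at 0.26 (adjusted p = 0.34) by its brightest probe and at 0.94 and 0.91 by its other probes. Wnt7b was at 0.73 (adjusted p = 0.18) and Angpt1 at -1.35 (adjusted p = 0.16).

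Clustered gene families of the chromosome differed in their counts. None of 8 Hoxc genes, the homeobox cluster that patterns the body axis, was called by limma (2 were higher at an unadjusted p under 0.05), and their median was -0.025. Of 19 keratin genes, 2 were called higher (Krt79 at 0.96 and Krt87 at 0.66) and 2 lower (Krt2 and Krt4), with a median of 0.29. Krt8, a keratin of simple epithelia, was at 0.63 (adjusted p = 0.16). Of 15 Ly6 family genes, 2 were called higher, with a median of 0.212. Of 16 neuronal and adhesion genes, 1 was called higher and 2 lower, with a median of 0.016 and 8 higher in the mean.

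**Figure D4:**
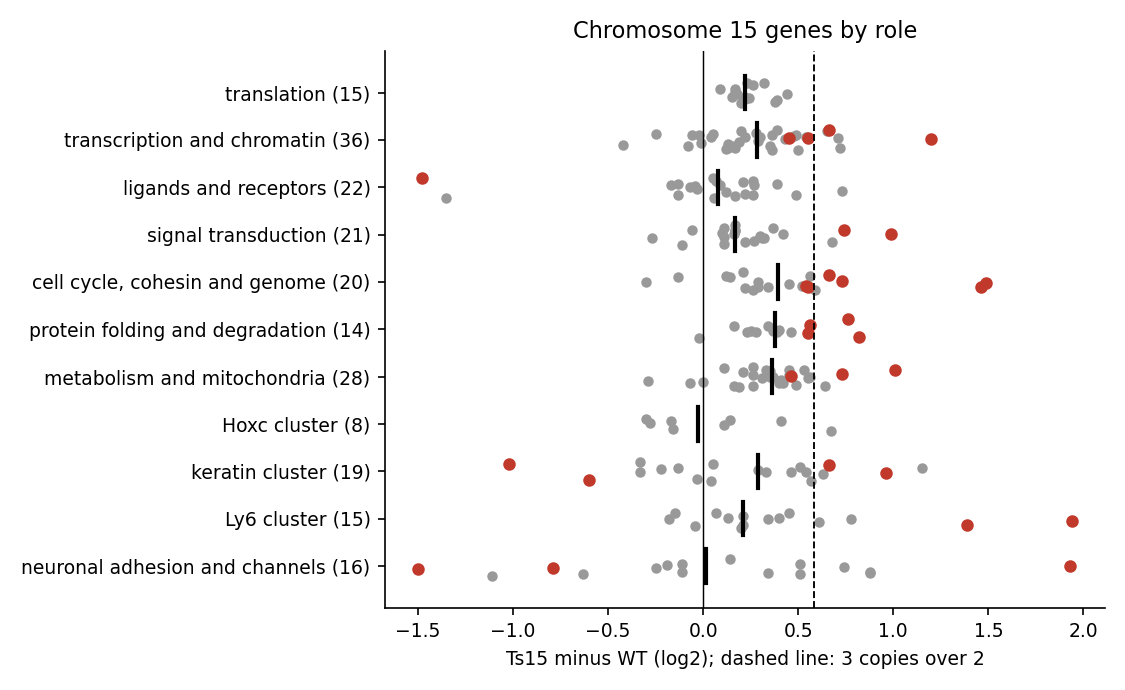
Ts15 minus WT log2 difference (x axis) of the chromosome 15 genes of each role list (y axis, with the number tested), 1 point per gene, red where called; black bars are list medians and the dashed line marks the ratio of 3 copies to 2. The medians for cell cycle (0.391), the broad list headed folding (0.383) and metabolism (0.358) lie furthest to the right, and those for Hoxc (-0.025) and neuronal genes (0.016) lie near 0.

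LincRNAs of chromosome 15 made up 7 of the 110 genes called higher and 13 of the 35 called lower. The lincRNA with a probe at chr15:68931421-68931480 was at -5.59 and -5.76 in WT and at -4.52 and -4.77 in Ts15. Its groups did not overlap, and its difference of 1.03 (adjusted p = 0.0063) was the highest of the lincRNAs called. Others called higher had probes at chr15:97925843-97925902 (0.89, adjusted p = 0.0037) and chr15:96991770-96991829 (0.69, adjusted p = 0.037). The 3 lowest called lincRNAs were above background on no Ts15 array, so their differences are given without a fold. The lowest of them, at chr15:74476132-74476191, was at -5.86 and -5.58 in WT and at -7.06 and -8.61 in Ts15.

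Ts15 was also compared with the mean of Ts6, Ts8 and Ts11, a comparison that uses the same Ts15 arrays but no WT array. These lines also differ from Ts15 in the level of the Y-linked genes Eif2s3y (Ts15 higher by 7.37) and Ddx3y (by 6.33), and in the chromosome of which they carry an extra copy. It called 308 chromosome 15 genes higher (27.9%) and 78 lower (7.06%), and elsewhere 6.24% higher and 12.3% lower. Over all genes tested, this second comparison called 7.08% higher. Of the 110 chromosome 15 genes called higher than WT, both Ts15 arrays were above all 8 other arrays for 88 (80.0%). For the 616 called higher elsewhere, both were above all 8 for 290 (47.1%). Of the 35 chromosome 15 genes called lower, both were below all 8 for 32 (91.4%). For the 1335 called lower elsewhere, both were below all 8 for 1072 (80.3%). The 8 arrays include the WT arrays against which these genes were called, so part of this separation comes from the selection. The share over all genes tested was not computed. Genes that were called in this second comparison and not against WT included Myc, Krt8 (1.29, adjusted p = 0.005), Wnt7b (1.26, adjusted p = 0.012) and Naprt (0.97, adjusted p = 0.0016). Trps1, a GATA-type repressor, was lower (-0.96, adjusted p = 0.0078).

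Away from chromosome 15, 616 genes were called higher in Ts15 (2.27% of 27088) and 1335 lower (4.93%). Genes whose probe has no chromosome position are counted among the genes elsewhere throughout. This split depended on the processing: quantile normalization gave 658 higher and 898 lower, centring on the autosomes trisomic in no line 642 and 1319, normexp background correction 656 and 742, and the values of the deposited series table gave 749 and 800. Of those called lower, 324 (24.3%) were above background on neither Ts15 array, and 949 were above background on all 4.

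The highest named gene outside chromosome 15 was Habp2, a hyaluronan-binding serine protease made in liver. It was at -3.54 and -3.20 in WT and at -0.37 and -0.90 in Ts15. The groups did not overlap, and the difference was 2.74 ± 0.20, or 6.67-fold (adjusted p = 0.0018). Among the other genes with high differences were S100g, a vitamin D-dependent calcium-binding protein, at 2.48 ± 0.33 (adjusted p = 0.0075) and the hexokinase relative Hkdc1 at 2.33 ± 0.39 (adjusted p = 0.015). Rfpl4b was at 2.55 (adjusted p = 0.038) and the globin chaperone Ahsp at 2.27 (adjusted p = 0.0078). Ahsp, whose probe has no chromosome position, was above WT in the other lines as well, by 0.45 to 1.24. Ly6g5c (2.64), Ldc1 (2.55), the meiotic gene Meiob (2.30) and Kctd19 (2.22) were called too and were also above WT in the other lines. Rfpl4b, Ly6g5c and Ldc1 were each above background on only 1 WT array.

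Among named genes called lower, Mmp27, a matrix metalloproteinase, was at -3.25 and -3.26 in WT and at -5.20 and -5.5 in Ts15. The Ts15 arrays were below all 8 others, and the difference was -2.09 ± 0.12 (adjusted p = 0.0012). Ptch1, the receptor of Hedgehog ligands, was at -0.73 and -1.19 in WT and at -2.74 and -2.67 in Ts15. The groups were separate, with a difference of -1.74 ± 0.17 (adjusted p = 0.0025). The other lines were lower than WT as well, by 1.11 to 1.91, and the Ts15 difference from their mean was -0.18 (adjusted p = 0.37). The olfactory receptor gene Olfr71 was at -2.55 to -2.29 on the 8 arrays of slide 1 and at -4.09 and -4.23 on the Ts15 arrays. Its difference of -1.73 thus also separates the slides, and slide and group cannot be told apart. Other named genes called lower were Chst3 (-2.15), Bend7 (-2.13), Olfr574 (-1.97), Olfr975 (-1.83), Efcab1 (-1.79), Tmprss5 (-1.78) and Inhbc (-1.72). Of these, Chst3, Bend7, Tmprss5 and Inhbc had differences from WT of -0.44 or lower in each of the other lines as well, and Chst3 was not called against their mean (adjusted p = 0.098).

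Endoderm genes formed the gene list with the most calls. Of 21 members, 14 were called higher and 0 lower against a background of 2.58% of all genes called higher, 19 had a higher mean in Ts15, and the median difference was 0.879. Only Dab2 of these lies on chromosome 15. The summed level of the list was 6.34 and 6.27 in WT, 7.19 and 6.95 in Ts15, and 6.11 to 6.29 on the arrays of the other lines. Against the mean of the other lines 18 of 21 were called higher, with a median of 1.182. In bulk RNA a larger share of endoderm cells and more such RNA per cell cannot be told apart.

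Gata4 was at 0.20 and 0.14 in WT and at 1.78 and 1.31 in Ts15. Its Ts15 arrays were above all 8 others, with a difference of 1.37 ± 0.17 (adjusted p = 0.006). Gata6 was at 0.57 and 0.52 in WT and at 2.32 and 1.79 in Ts15. The groups did not overlap, and the difference was 1.51 ± 0.22 (adjusted p = 0.0088).

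Sox17 was at -2.18 and -2.61 in WT and at 0.36 and -0.19 in Ts15. Its difference, 2.48 ± 0.27 (adjusted p = 0.0034), was the highest of the list. Sox7 was at -1.49 and -1.15 in WT and at 0.52 and -0.12 in Ts15. The Ts15 arrays were both higher, by 1.52 ± 0.21 in the mean (adjusted p = 0.0078). Foxa2 was at -1.43 and -2.05 in WT and at 0.50 and -0.09 in Ts15. It too was without overlap, with a difference of 1.95 ± 0.31 (adjusted p = 0.013).

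Genes of the basement membrane that parietal endoderm secretes were higher as well. Col4a2 was at 2.70 and 2.56 in WT and at 3.60 and 3.42 in Ts15. The arrays were separate, with a difference of 0.88 ± 0.11 (adjusted p = 0.0061). Col4a1 (0.75, adjusted p = 0.013), the laminin gene Lama1 (0.95, adjusted p = 0.011) and Sparc (0.55, adjusted p = 0.033) were called, and Lamb1 was at 0.51 (adjusted p = 0.056). Of genes of visceral endoderm, the uptake receptor genes Amn (1.40, adjusted p = 0.026) and Cubn (1.47, adjusted p = 0.014) and the lipoprotein gene Apoe (0.72, adjusted p = 0.015) were called. Not called were Pdgfra (0.61, adjusted p = 0.082), Ttr (1.05, adjusted p = 0.35) and Hnf4a (0.75, adjusted p = 0.32), and Afp (0.00), Apoa1 (-0.03) and Lrp2 (-0.33). The count of 14 fell to 8 without WT array 1, 7 without WT array 2, 5 without Ts15 array 1 and 12 without Ts15 array 2, and to 3 in a fit of only the 4 arrays, with list medians of 0.776 to 0.953 over all settings.

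**Figure D5:**
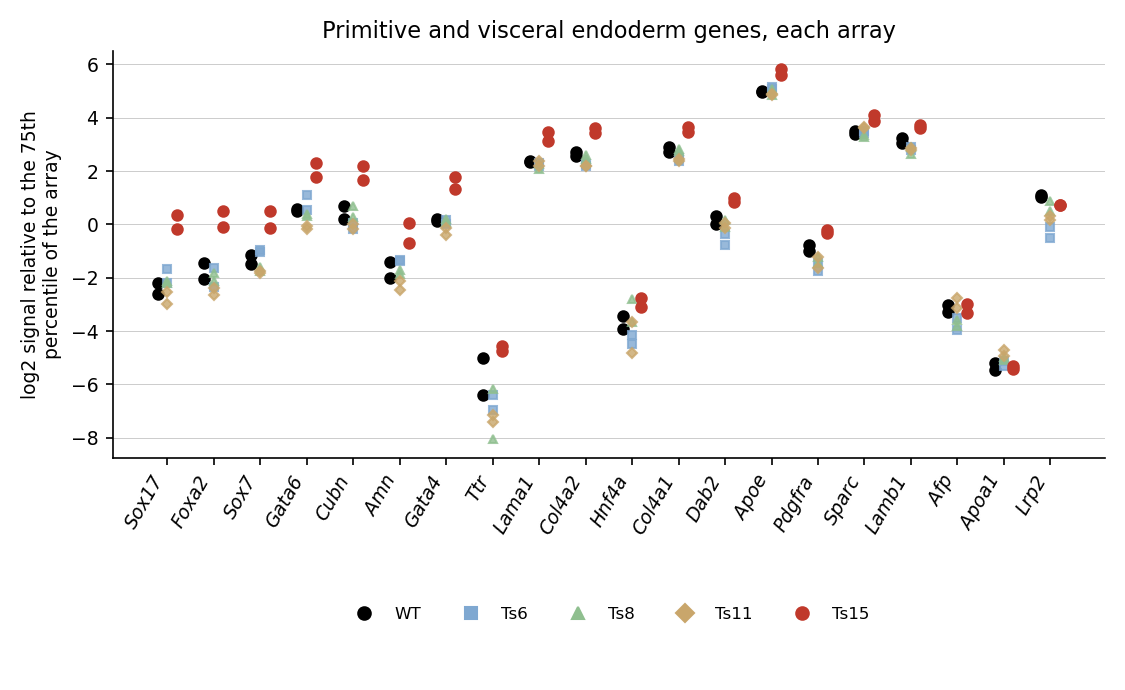
Level (y axis, log2 signal relative to the array's 75th percentile) of the endoderm genes named in the text (x axis), 1 point per array of all 5 groups, in order of the difference. The Ts15 points of Gata4, Gata6, Sox17, Sox7 and Foxa2 lie above those of WT, and the summed level of the list is 7.19 and 6.95 in Ts15 against 6.34 and 6.27 in WT.

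Feeder fibroblasts also express Sparc and type IV collagens. Of 26 feeder genes, 1 was called higher, the smooth muscle actin gene Acta2 (0.65, adjusted p = 0.043), 20 had a higher mean in Ts15, and the median was 0.111. It was 0.313 without Ts15 array 1 (24 higher) and turned to -0.054 without Ts15 array 2 (11 higher). Their summed level was 6.80 and 6.85 in WT, 6.91 and 7.02 in Ts15, and 6.46 to 6.81 in the other lines. The part of this difference in the endoderm list was not tested.

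Naive pluripotency genes gave no limma calls in either direction among 26 members, with 1 higher and 1 lower at an unadjusted p under 0.05 and a median of 0.016. Pou5f1 was at -0.04, Nanog at -0.05 and Sox2 at -0.28 (adjusted p = 0.2). Their summed level was 8.09 and 8.01 in WT and 8.14 and 7.97 in Ts15. Of 17 primed epiblast genes none was called (1 higher at an unadjusted p under 0.05, median -0.032), and of 16 neuroectoderm genes the neuronal gene Dcx was called lower (median -0.213). Of 14 mesoderm genes Hand1 (1.32) and the caudal homeobox gene Cdx1 (1.40) were called higher. Of 16 trophectoderm genes Tfap2c (0.51) and again Hand1 were called, with a median of 0.464.

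Genes that respond to the regulators encoded on chromosome 15 were listed by regulator. Of 26 genes of the Atf4 and amino acid response, all 26 had a higher mean in Ts15, with a median of 0.499, and 3 were called. Chac1, which degrades glutathione, was at -0.13 and -0.17 in WT and at 1.21 and 0.87 in Ts15. The groups did not overlap, and the difference was 1.19 ± 0.16 (adjusted p = 0.0067). Atf3 (1.08, adjusted p = 0.031) and Nupr1 (0.97, adjusted p = 0.033) were the others, and the asparagine synthetase gene Asns was at 0.62 (adjusted p = 0.064). Nupr1 was above WT by 0.45, 0.45 and 0.95 in Ts6, Ts8 and Ts11. It was not called against the mean of these lines (limma adjusted p = 0.17). The list's median was 0.664 without WT array 1 and 0.319 without WT array 2, and against the mean of the other lines it was 0.175. Of 22 sterol synthesis genes, the targets of Srebf2, none was called by limma, none passed an unadjusted p of 0.05 and 4 were higher in the mean, with a median of -0.29. That median was -0.522 without WT array 1 and -0.049, with 10 of 22 higher, without WT array 2. Of 25 Myc target genes none was called (1 higher and 1 lower at an unadjusted p under 0.05), with a median of 0.027. Of 18 genes of the LIF and Stat3 pathway Fos was called lower (-0.72).

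The remaining lists are given by their calls, beside 2.58% of all genes called higher and 4.86% called lower. Of 17 cohesin genes Smc1b was called higher (median 0.088). Of 20 germ cell genes, Tdrd1, Tdrkh, Tex101 and the piRNA helicase gene Mov10l1 were called higher and Asz1 and Piwil4 lower, with a median of 0.256. Of 18 heat shock genes Hspa1a was called (1.05), of 22 p53 targets Gtse1, and of 28 interferon response genes Ifit3 (0.88) and Rsad2 (0.93). Of 32 imprinted genes, the growth inhibitor gene Grb10 (-1.65) and Ndn (-0.90) were called lower. Of 18 genes of the 2-cell-like state none was called against WT (1 higher and 1 lower at an unadjusted p under 0.05, median -0.057), while 13 were called higher against the mean of the other lines. Of 7 Y-linked genes Ube1y1 was called higher (0.77). Eif2s3y was at 0.84 and 0.70 in WT and at 0.85 and 0.77 in Ts15, so its arrays overlapped, and Ddx3y differed by -0.10. In the other lines Eif2s3y was at -8.18 and -8.14 (Ts6), -3.08 and -2.99 (Ts8), and -8.78 and -8.21 (Ts11), below WT and Ts15 on every array.

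The p-values rest on the spread between the 2 samples of a group, pooled over all 5 groups, and on a prior from all genes. They thus draw on the spread of the other lines too, and a fit of only the 4 WT and Ts15 arrays called 655 genes, against 2096. The samples of a group were taken at different passages, and slide, passage and line origin all differ between Ts15 and WT. Against 145 called genes on chromosome 15 with all arrays, the count was 82 without WT array 1, 41 without WT array 2, 48 without Ts15 array 1 and 47 without Ts15 array 2, while the median of chromosome 15 genes stayed between 0.182 and 0.233 in every setting.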

How the data were processed

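Total RNA was amplified linearly and labelled with Cy3, per the labels' protocols. The deposited intensity values are the processed signals of 1-colour mouse arrays from Agilent Feature Extraction 10.7.3.1, per the submitters' processing notes and the file headers, and were not normalized between arrays; those of Ts15 array 2 hold 3 significant digits and those of the other arrays 7. The authors' deposited series table holds log2 values (r of 0.9984 to 0.9999 with the scanner's log2 signals across probes, column medians of -3.41 to -3.31, centring unstated) and served as an alternative.

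From these, log2 signals minus each array's 75th percentile were computed, spots of a probe were averaged, and 176 of 55681 probes with outlier marks were left out. A probe was kept where both arrays of some group were well above background, which left 43056. Each gene was represented by its probe of highest mean level across the 10 arrays. Names came from the WT array 1 file and, by accession, from RefSeq for 26756 of 28390 probes.

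Limma 3.58.1 in R 4.3.3 fitted 1 mean per group over all 10 arrays (5 residual and 2.67 prior degrees of freedom), two-sided, with Benjamini-Hochberg adjustment over all 28193 genes. Same-numbered WT and Ts15 arrays did not deviate together (r = -0.04 across genes). On simulated data for this contrast, run on all genes tested, 8% of genes changed by 0.58 on the log2 scale were recovered, 50% at 1, 88% at 2 and 96% at 3. The simulation shuffled the residual spreads among genes and gave 128 calls, against 2096 in the real data. Its recovery rates therefore need not hold for the real contrast. Where a group was above background on no array, a fold is a bound against the lowest signal called above background.

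Members and gene lists were chosen with earlier results of these data known. Named genes were the 12 highest and up to 12 lowest called on chromosome 15 (7 met the rule) and the 10 highest and 10 lowest elsewhere (with an established symbol, above background in both groups, arrays not overlapping), the highest and lowest bounds, up to 4 called genes of each list, a set of regulators and Y-linked genes, the called gene with the highest absolute change per window, and 3 lincRNAs each way. Figures were drawn with matplotlib 3.10.9, and tables were made with pandas 2.3.3 and numpy 2.4.6 under Python 3.11.15. A few called list members are not reported here.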

Additional observations from a re-analysis of the deposited data

Results flagged for a closer look

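For several named genes outside chromosome 15, the difference of Ts15 from the mean of the other 3 trisomic lines was called by limma. Not all stood apart from each line: the Ts15 arrays of Cdx1, Hand1, Chac1, Grb10 and Efcab1 were not beyond all arrays of those lines. Because all of these arrays except the Ts15 arrays share slide 1, slide and line cannot be told apart for any of them. Differences below are Ts15 minus that mean, on the log2 scale.

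Among genes higher in Ts15, the calcium-binding protein gene S100g was at 3.08, Rfpl4b at 3.01, Habp2 at 2.39 and Hkdc1 at 2.18. Endoderm genes were Sox17 at 2.37, Sox7 at 1.68, Gata4 at 1.55 and Col4a2 at 1.19. The protease inhibitor gene Spint3 was at 2.6, the endothelin gene Edn3 at 2.33, Ahsp at 1.53 and Wfdc13 at 1.38. Spint3, Wfdc13 and Edn3 were above background on no array of WT, so only bounds can be given against WT: at least 2.96-fold higher for Spint3, at least 2.49-fold for Wfdc13 and at least 2.43-fold for Edn3. Stress response genes were Atf3 at 1.04, Chac1 at 0.71 and Hspa1a at 0.8. The developmental factor genes Hand1, Cdx1 and Tfap2c were at 1.04, 0.78 and 0.51, Acta2 at 0.54 and Ifit3 at 0.45.

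Among genes lower in Ts15, the germ cell gene Asz1 was at -2.78, the lowest of this group, and the piRNA gene Piwil4 at -0.61. For Asz1, Ts15 differed from WT by -1.59, while Ts6 and Ts11 were above WT by 2.35 and 1.72 and Ts8 was at -0.47. Against the mean of the other lines, Mmp27 was at -1.98, and the olfactory receptor genes Olfr524, Olfr71, Olfr975 and Olfr574 were at -1.85, -1.8, -1.77 and -1.72. Crisp1 was at -1.96, the growth factor gene Fgf6 at -1.75 and Frrs1l at -1.59, and these 3, Olfr524 and Dcx were above background on no Ts15 array, so the fitted differences rest on dim signals there. Against WT, Fgf6 was at least 3.82-fold lower, Crisp1 3.03-fold, Frrs1l 3.02-fold and Olfr524 2.99-fold. The neuronal gene Dcx was at -1.62, Efcab1 at -1.54, Bend7 at -1.34, Inhbc at -1.02 and Tmprss5 at -0.91. The imprinted genes Grb10 and Ndn were at -0.76 and -0.51.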

How the results depend on the processing

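No called named gene changed direction under any alternative run. The shift of chromosome 15 was 0.218; it was 0.194 with normexp, 0.178 with no filter on dim probes and 0.237 with probes above background on all 4 arrays, and 0.209 to 0.228 without 1 array. Of 2096 called genes (145 on chromosome 15, 1951 elsewhere, 67 list members, 93 named genes), no filter left 1281, 86, 1195, 39 and 61, and a fit of only the 4 arrays left 655, 43, 612, 28 and 47. Without 1 array the counts were 751 to 1313, 41 to 82, 704 to 1231, 18 to 43 and 39 to 60, while windows with a shift above 0 on both arrays stayed at 10. Without WT array 1, WT array 2, Ts15 array 1 and Ts15 array 2, the totals were 1313, 770, 835 and 751. Genes called against the other lines, 5400, were 1544 to 5254 without 1 array, with 2052 without Ts15 array 1 and 1544 without Ts15 array 2. The smaller fits have fewer samples; other causes were not tested. Same-numbered arrays share only a number; with replicate block, 2139 genes were called (120 higher and 35 lower on chromosome 15), 5578 against the other lines, 65 list members and 82 named genes. Shift and windows were not computed for the block or the fit of only the 4 arrays. Calls elsewhere were 31.6% higher ones in the main setting, 42.3% with quantile normalization, 46.9% with normexp and 48.4% with the series table; on chromosome 15 the share was 75.9%, 88% with normexp and 45.8% without Ts15 array 1 (22 higher, 26 lower). Without 1 array, list medians ran across 0 for Hoxc (-0.205 to 0.137), feeder (-0.054 to 0.313), naive pluripotency (-0.049 to 0.07), 2-cell-like (-0.068 to 0.053), Myc target (-0.057 to 0.097), p53 target (-0.001 to 0.241) and Y-linked genes (-0.031 to 0.106). The median of all genes ran from -0.026 to 0.023. Of 93 called named genes, 30 were called in every setting run.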

Other observations

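The following genes of meiosis and the piRNA pathway on chromosome 15 were called higher and were picked after their values were seen, with no count of such genes that were not called. Besides Smc1b and Mei1, the recombinase gene Dmc1 was at -0.56 and -0.50 in WT and at 0.52 and 0.33 in Ts15, a difference of 0.95 ± 0.14 (adjusted p = 0.0091). Syce3, a part of the synaptonemal complex, was at -0.17 and -0.38 in WT and at 1.09 and 0.77 in Ts15, a difference of 1.20 ± 0.16 (adjusted p = 0.0072). Against the mean of the other trisomic lines Dmc1 differed by 0.30 (adjusted p = 0.098) and Syce3 by 0.69 (adjusted p = 0.012). Mov10l1 differed from WT by 1.26 (adjusted p = 0.013).

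Olfactory and vomeronasal receptor genes were also singled out after their values were seen. Of 304 olfactory receptor genes, 3 were called higher and 59 lower (19.4%, against 4.86% of all genes called lower), with a median difference of -0.302. For 57 of the 59 both Ts15 arrays were below all 8 other arrays, 35 were above background on neither Ts15 array, and 20 on both. The 59 were already chosen as lower than WT, and the share of all genes below all 8 was not computed. Of 65 vomeronasal receptor genes, 11 were called lower (16.9%), with a median of -0.347. The 4.86% given for all genes covers dim and bright genes alike. Outside chromosome 15, 17.2% of genes dim on some of the 4 WT and Ts15 arrays were called lower, with a median of -0.497. The share was 3.82% for genes there above background on all 4. Neither receptor family was compared with genes of like brightness, so the part of brightness in these calls was not tested. The Ts15 arrays are also the only arrays of slide 2, and slide and line cannot be told apart.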
